A study of Ericerus pela with 2 samples.

Results

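Neuropeptides, their receptors and the signals that drive ecdysis were examined in male pupae and male prepupae of the white wax scale insect, Ericerus pela. The members were the unigenes (assembled transcript fragments) whose best protein database match contained any of 19 search terms, such as ecdysis, bursicon, allatostatin or adipokinetic. A total of 29 of 120710 unigenes met this rule. By name, 7 were peptide precursors, 21 were receptors and 1 was a processing enzyme. Several fragments can come from 1 transcript, so the 29 unigenes may stand for fewer genes.

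The study compared stages of the male line, in which a winged adult develops from a wingless nymph. It holds 1 RNA library of wild-type male pupae and 1 of wild-type male prepupae, with no replicates. The labels give the material of both libraries as whole insect bodies and an age of 90 with no unit, while the series' design note names the retina. The labels do not state how many insects were pooled. In bulk RNA of many cells, more cells that make a transcript and more of it per cell cannot be told apart.

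The deposited tables held 1840877 unique reads in pupae and 2182108 in prepupae. Marker names for muscle, fat body, gut, testis and axoneme, cuticle and photoreceptors all had reads in both libraries, with list sums of 664 to 13246 reads in pupae and 169 to 7617 in prepupae. Some of these name searches catch related proteins, such as rhodopsin-like receptors among the opsins. Hexamerin, flightin and tektin matched no unigene, and 5 of 7 glial terms matched none. Over all unigenes with a mean level of at least 1 RPKM (reads per kilobase of unigene and per 1000000 reads of the library), the median log2 ratio of pupae to prepupae was −0.49, or 0.712-fold, after a pseudocount of 1 RPKM.

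Insects shed the old cuticle under the control of a peptide relay. Ecdysis-triggering hormone, released from endocrine cells on the tracheae in moths and flies, acts on neurons that carry its receptor, and eclosion hormone from the brain amplifies its release. Bursicon, a dimer of the bursicon and partner of bursicon subunits, then acts on a leucine-rich repeat receptor (Rickets in Drosophila) to harden and darken the new cuticle and to spread the wings. Other insect peptides set energy supply, water balance, gut and heart movement, feeding and the release of further hormones. Nearly all act through G-protein coupled receptors, and the active peptides are cut from longer precursors and stored in dense-core vesicles.

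Several peptide precursors and the main fragment of the ecdysis-triggering hormone (ETH) receptor were higher in pupae. Allatostatin C receptor 2 and 1 of 2 pyrokinin receptor unigenes were lower, while the other pyrokinin receptor unigene was called higher. A test across samples needs replicates, which the design lacks. A member was called higher or lower where log2(RPKM + 1) differed at least 2-fold, which understates the change of low unigenes. The folds printed are ratios of RPM (reads per 1000000 reads of the library) with a 95% exact conditional binomial interval, which covers counting error only. Of the 28 members with a mean of at least 1 RPKM, 8 were called higher, 5 lower and 15 neither. Over all 113976 unigenes so filtered, 23.0% were called higher and 39.4% lower. Among the 26856 filtered unigenes with a database match, which every member has, 14.7% were called higher and 41.4% lower. The higher share of the members (28.6%) was near that of all unigenes and above that of the matched ones. Their lower share (17.9%) was under both. These differences were not tested. Centring on the overall median, or TMM scaling, gave 10 higher and 3 lower among the members. These scalings moved the calls of all 113976 filtered unigenes in the same direction. As deposited, 26264 of those were higher and 44893 lower. Centring gave 34176 higher and 35653 lower, and TMM scaling 32140 higher and 38100 lower. The shares as deposited are therefore not the background for the rescaled member counts.

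Low counts made part of these calls. Of the 8 higher members 2, and of the 5 lower members 2, had no more than 3 reads in either library. Among members with at least 20 reads in total, 5 of 16 were higher and 3 lower, while 17.9% of all unigenes with that many reads were higher and 37.5% lower. The median log2 ratio of the filtered members was 0.15 (distribution-free 95% interval −0.43 to 0.86). That interval treats unigenes as independent, which fragments of 1 transcript are not, and it does not cover variation between insects. All members together held 483 reads in pupae and 516 in prepupae, a ratio of 1.11 (0.978 to 1.26).

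**Figure D1:**
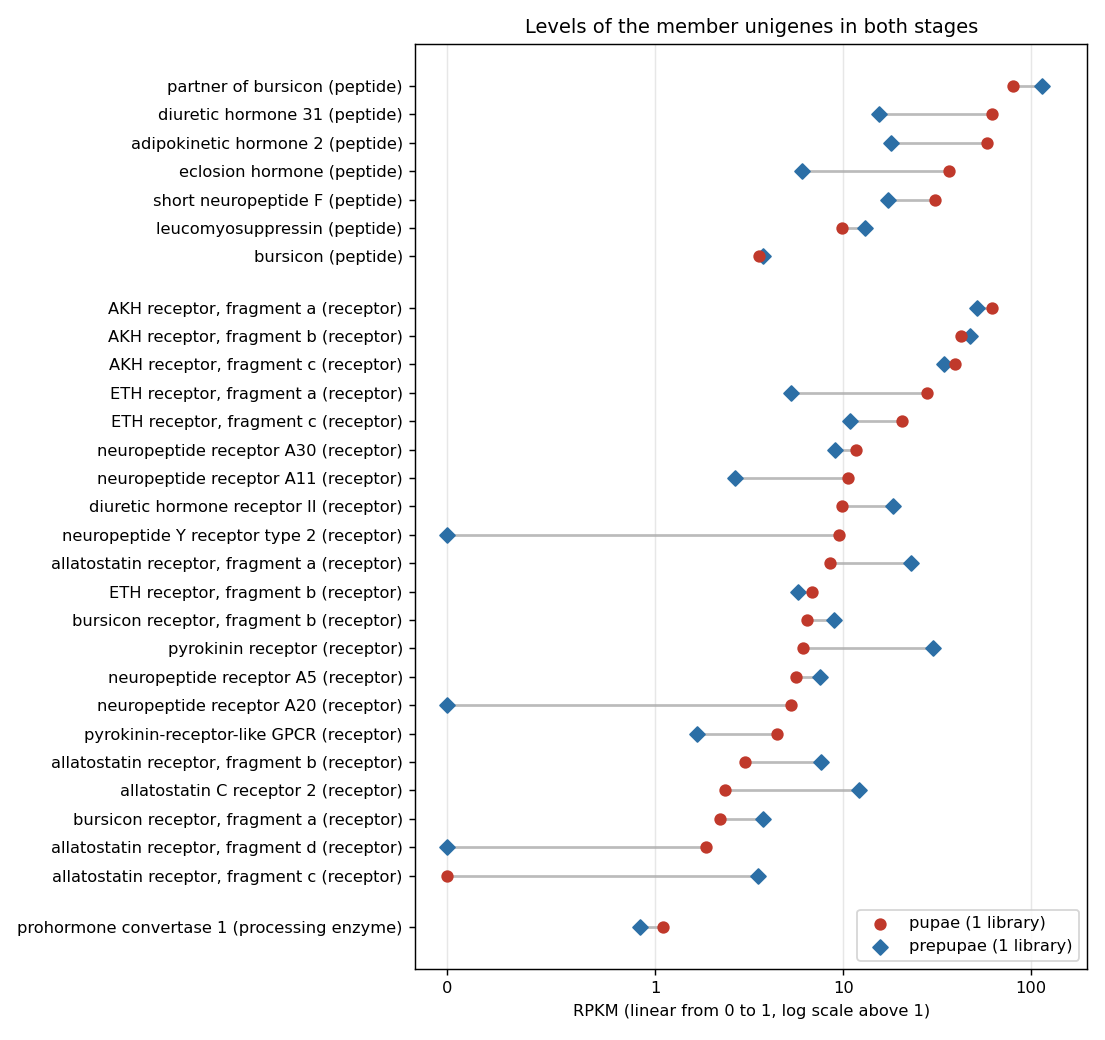
RPKM of each of the 29 member unigenes in pupae (red circles) and prepupae (blue diamonds), 1 library each, ordered by role and by the pupal level; the axis is linear below 1 and logarithmic above. Partner of bursicon had the highest level in both stages, 80.2 RPKM in pupae and 114 RPKM in prepupae, and 4 receptor fragments had no read in 1 of the stages.

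The median level of the 29 members was 9.53 RPKM in pupae and 8.99 RPKM in prepupae. For all filtered unigenes it was 6.22 RPKM in pupae and 8.005 RPKM in prepupae. Their unigenes were 171 to 1926 bases long. Most matches were to insects, 11 of the 29 to the pea aphid Acyrthosiphon pisum, and 1 was to an abalone. The authors' Gene Ontology terms gave hormone activity to 4 members and a receptor activity to 17. The remaining 9 of the 19 search terms matched no unigene, among them corazonin, allatotropin, tachykinin, FMRF, pigment-dispersing and prothoracicotropic. The term ecdysis matched receptors alone, so no level of ETH itself can be given.

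In the ecdysis relay, eclosion hormone, the brain peptide that amplifies ETH release, had the largest fold of any named member. Its unigene, Unigene143816_FOB of 458 bases, had 31 reads in pupae and 6 in prepupae, or 36.8 RPKM in pupae and 6.004 RPKM in prepupae. This was 6.12-fold higher in pupae, with a counting interval of 2.52 to 17.96. Reads covered 94.3% of its length in pupae and 34.7% in prepupae. The match to the aphid protein had an E-value of 4.38e-15.

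The receptor of ETH was represented by 3 fragments. The longest, Unigene36747_FOB of 1218 bases, matched receptor subtype B and had 63 reads in pupae and 14 in prepupae, a level of 28.1 RPKM in pupae and 5.27 RPKM in prepupae. The other fragments were smaller and shallower. The one of 480 bases had 6 reads in each library, and the one of 210 bases had 8 in pupae and 5 in prepupae. Their ratios of 1.19 (0.317 to 4.43) and 1.90 (0.547 to 7.37) have intervals that overlap the 2.96 to 10.3 of the longest fragment, whose own ratio was 5.33. The 3 fragments summed to 77 reads in pupae and 25 in prepupae, a 3.65-fold higher level (2.30 to 5.98). Whether the fragments belong to 1 gene or to several cannot be read from the tables.

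No unigene of the bursicon system was called. Bursicon itself was sparse, with 4 reads in pupae and 5 in prepupae (0.948-fold, 0.188 to 4.41). Partner of bursicon, the second subunit, was far more abundant, with 57 reads in pupae and 96 in prepupae. Its level was 80.2 RPKM in pupae and 114 RPKM in prepupae, 1.42-fold lower (1.01 to 2.01), short of the 2-fold rule. On the centred scale its log2 ratio was −0.01, close to the median unigene. The partner's unigene was matched to an ant protein with an E-value of 5.64e-10, against 1.93e-47 for bursicon, so its name is the less certain one. Per length the partner was the most abundant member in both stages, while bursicon ranked 23 in pupae and 21 in prepupae among the 29.

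The fragments named bursicon receptor were also sparse. They had 2 and 3 reads in pupae and 4 and 5 in prepupae, and neither was called. Their sum of 5 reads in pupae and 9 in prepupae gave a ratio of 0.659 (0.173 to 2.19). Outside the rule, 2 further unigenes named rk-like glycoprotein hormone receptor, the same receptor class, also summed to 5 reads in pupae and 9 in prepupae. Their values were known when they were chosen. At these counts a difference between the stages was not detectable for bursicon or its receptor.

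Across the 8 unigenes of the ecdysis relay, 2 were called higher and none lower. That higher share was near the 23.0% of all filtered unigenes, of which 39.4% were lower. With a database match, 14.7% were higher and 41.4% lower. The peptides eclosion hormone, bursicon and partner of bursicon summed to 92 reads in pupae and 107 in prepupae (1.02-fold, 0.763 to 1.36), a sum in which partner of bursicon outweighs the others. The 5 receptor fragments summed to 82 reads in pupae and 34 in prepupae (2.86-fold, 1.89 to 4.40). The bursicon receptor fragments supplied 5 of these reads in pupae and 9 in prepupae, and the ETH receptor the rest.

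**Figure D2:**
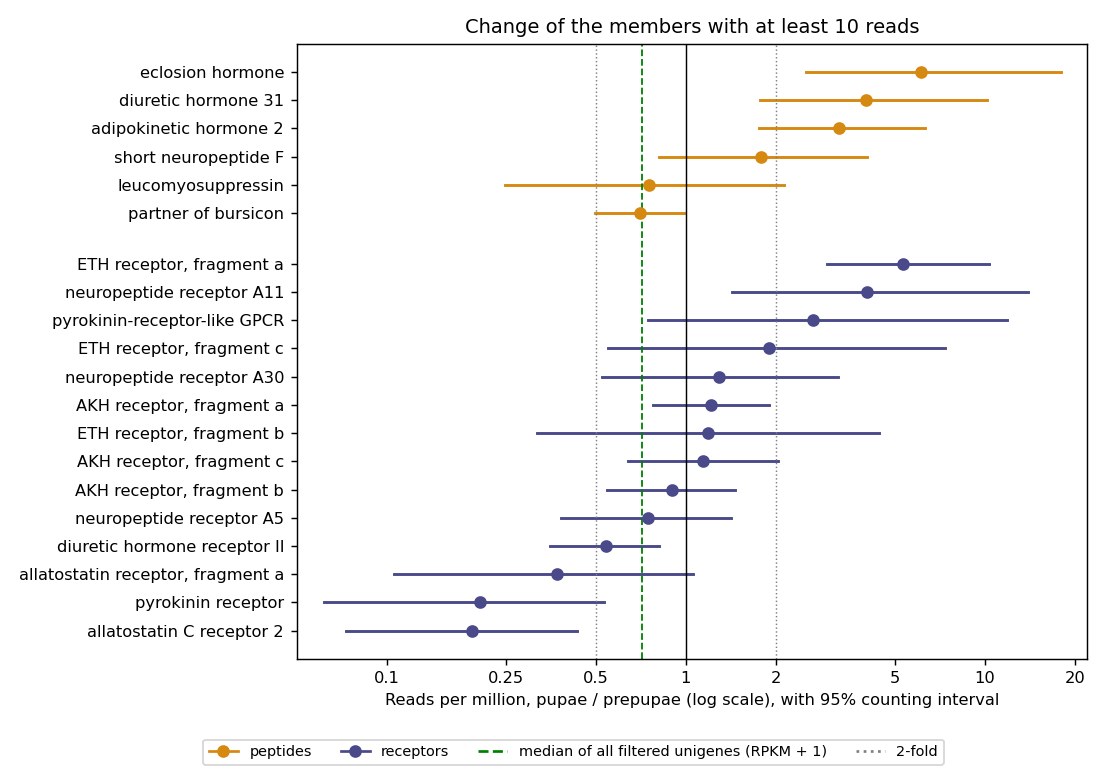
Ratio of RPM, pupae over prepupae, on a log axis with its 95% counting interval, for the 20 members with at least 10 reads (orange peptides, blue receptors); dotted lines mark 2-fold and the dashed line the overall median ratio. Eclosion hormone (6.12) and the longest ETH receptor fragment (5.33) are farthest to the right, and allatostatin C receptor 2 (0.193) and the pyrokinin receptor (0.204) farthest to the left.

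Among the other peptides, adipokinetic hormone (AKH), which releases stored lipid and sugar from the fat body, was higher in pupae. The unigene matching adipokinetic hormone 2 of the beetle Tribolium castaneum had 41 reads in pupae and 15 in prepupae. The level was 58.2 RPKM in pupae and 17.9 RPKM in prepupae, 3.24-fold higher (1.76 to 6.30). The match had an E-value of 6.69e-11, and its Gene Ontology terms were receptor binding, RNA binding, intramolecular transferase activity and nucleolar part.

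The AKH receptor had a similar level in both stages as deposited. Its 3 fragments had 44, 31 and 26 reads in pupae and 43, 41 and 27 in prepupae, and their ratios lay between 0.896 and 1.21. Their sum of 101 reads in pupae and 111 in prepupae gave 1.08-fold (0.816 to 1.43). The ratio of the sums was 1.52 after centring and 1.42 with TMM scaling. As the interval covers counting error only, it cannot exclude a 2-fold difference between the stages. At 39.2 to 62.4 RPKM in pupae and 34.4 to 51.5 RPKM in prepupae, these fragments were the most abundant receptors of the set in both stages.

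Diuretic hormone 31, a calcitonin-like peptide that promotes fluid secretion by the Malpighian tubules, was also higher. It had 27 reads in pupae and 8 in prepupae, 61.9 RPKM in pupae and 15.5 RPKM in prepupae, a ratio of 4.001 (1.77 to 10.2). The unigene named diuretic hormone receptor II went the other way as deposited, with 35 reads in pupae and 77 in prepupae, 1.86-fold lower (1.23 to 2.85). Its log2 ratio was −0.83 as deposited and −0.34 after centring. It stayed short of the 2-fold rule, and the files do not say which diuretic hormone binds it.

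Short neuropeptide F, a feeding and growth peptide in Drosophila, had 18 reads in pupae and 12 in prepupae. Its ratio of 1.78 (0.810 to 4.05) has an interval that includes 1, and it was called higher after centring or TMM scaling but not as deposited. Leucomyosuppressin, which inhibits the contraction of visceral muscle, had 7 reads in pupae and 11 in prepupae (0.754-fold, 0.248 to 2.13). Neither peptide was called as deposited.

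Over all 7 peptide precursors, 3 were called higher and none lower, beside 23.0% higher and 39.4% lower over all filtered unigenes. They summed to 185 reads in pupae and 153 in prepupae, a ratio of 1.43 (1.15 to 1.79). Without partner of bursicon, which held most of the prepupal peptide reads, the other 6 summed to 128 reads in pupae and 57 in prepupae, 2.66-fold higher (1.93 to 3.70). The 21 receptor unigenes summed to 297 reads in pupae and 362 in prepupae, a ratio of 0.973 (0.831 to 1.14), which became 1.37 after centring and 1.28 with TMM scaling. Of the 20 filtered receptors, 5 were higher and 5 lower, or 6 and 3 under either of the other scalings. Both scalings also gave more higher and fewer lower calls over all filtered unigenes. The receptors' higher share as deposited was near that of all filtered unigenes and above the 14.7% of those with a database match. Without the ETH receptor the receptor sum was 220 reads in pupae and 337 in prepupae (0.774-fold, 0.650 to 0.9198), a ratio that turned to 1.09 after centring and 1.02 with TMM scaling. The difference between peptides and receptors could not be tested with 1 library per stage.

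Allatostatins are peptides first known as inhibitors of juvenile hormone synthesis, and 1 of their 5 receptor unigenes had a counting interval that left out 1. Allatostatin C receptor 2, a fragment of 1622 bases with the best match of the set (4.48e-121), had 7 reads in pupae and 43 in prepupae. Its level was 2.34 RPKM in pupae and 12.1 RPKM in prepupae, 5.18-fold lower (2.31 to 13.7). Reads covered 17.0% of it in pupae and 67.8% in prepupae.

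The fragments named allatostatin receptor were much shallower. The deepest had 5 reads in pupae and 16 in prepupae and was called lower, with a ratio of 0.370 whose interval of 0.106 to 1.06 includes 1. The 3 others had 0 to 1 reads in pupae and 0 to 3 in prepupae, and 1 of them had its only read in pupae. The lower calls of the deepest fragment and of 1 other were lost after centring and with TMM scaling. All 5 allatostatin receptor unigenes together held 14 reads in pupae and 64 in prepupae, 0.259-fold (0.134 to 0.467), most of them on allatostatin C receptor 2.

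Pyrokinins are peptides that contract muscle and, in moths, start pheromone synthesis. The receptor matched to a wasp protein had 5 reads in pupae and 29 in prepupae, or 6.12 RPKM in pupae and 29.9 RPKM in prepupae, 4.89-fold lower (1.87 to 16.2). A second unigene, named pyrokinin-receptor-like, had 9 reads in pupae and 4 in prepupae. It was just past the 2-fold rule as higher (log2 ratio 1.03), but its ratio of 2.67 had an interval of 0.744 to 11.9. The intervals of the 2 receptors do not overlap.

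Unigenes matched to numbered neuropeptide receptors of the silk moth Bombyx mori gave ratios of unlike size. Neuropeptide receptor A11 had 17 reads in pupae and 5 in prepupae, 10.7 RPKM in pupae and 2.65 RPKM in prepupae, 4.03-fold higher (1.43 to 14.0). Receptor A30 had 12 reads in pupae and 11 in prepupae (1.29-fold, 0.522 to 3.23). Receptor A5 had 17 in pupae and 27 in prepupae (0.746-fold, 0.382 to 1.42), and neither of these was called. Receptor A20 and a neuropeptide Y receptor type 2 had 2 and 3 reads in pupae and none in prepupae, at or under the floor of 3 counts, so no fold is given for them. Prohormone convertase 1 had 1 read in each library.

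For 9 of the 29 members the counting interval, on the deposited scale, excluded a ratio of 1. The interval lay above 1 for 5 of them, namely eclosion hormone, AKH 2, diuretic hormone 31, the longest ETH receptor fragment and receptor A11. It lay below 1 for 4, namely allatostatin C receptor 2, the pyrokinin receptor, diuretic hormone receptor II and partner of bursicon. Over all unigenes the interval lay above 1 for 9.60% and below 1 for 17.9%, but 63695 of the 120710 unigenes had fewer than 10 reads and could seldom reach it.

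**Figure D3:**
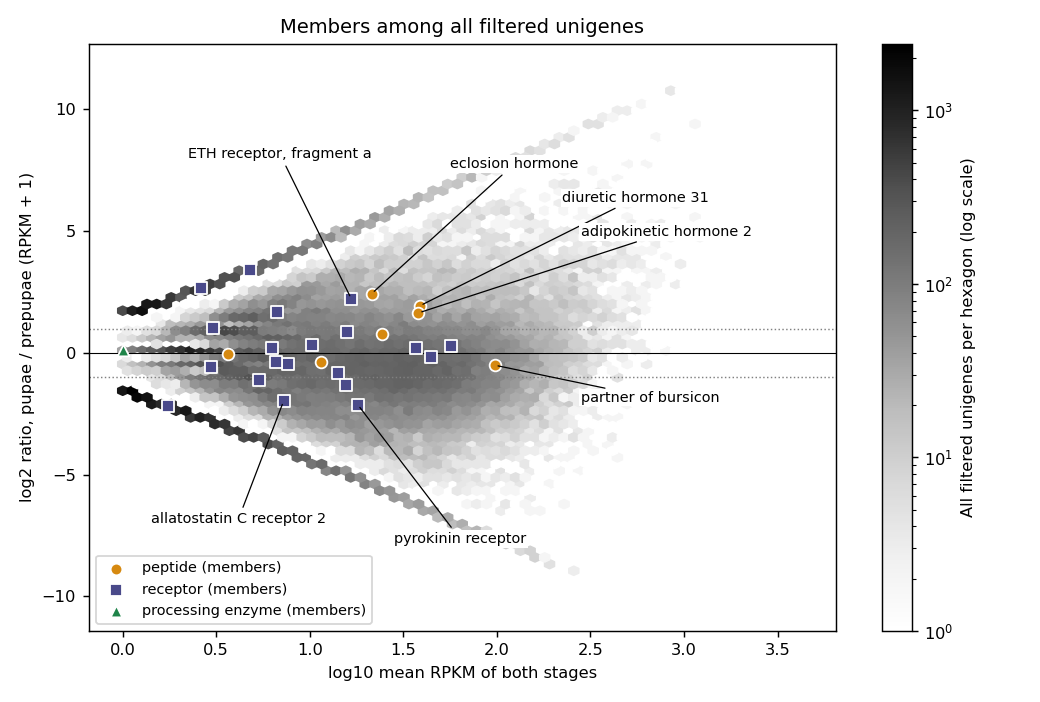
log2 ratio of pupae to prepupae (RPKM + 1) against the log10 mean RPKM for all 113976 filtered unigenes (grey hexagons, darker for more unigenes) and the 28 filtered members (coloured symbols by role); dotted lines mark 2-fold. The members lie inside the cloud of all unigenes, with eclosion hormone at 2.43 and the pyrokinin receptor at −2.12.

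Most neuron marker unigenes matched by name were also higher in pupae. The neuron list matched 6 of its 8 terms in 11 unigenes, of which 7 were called higher and none lower, beside 23.0% higher and 39.4% lower over all filtered unigenes. Its sum was 280 RPM in pupae and 107 RPM in prepupae, 2.61-fold higher (2.23 to 3.06). The terms embryonic lethal abnormal and choline acetyltransferase matched no unigene, and the 1 ELAV-like unigene had 3 reads in pupae and 1 in prepupae. Synaptobrevin had 4 reads in pupae and 6 in prepupae. The term synaptotagmin I also caught a synaptotagmin IV unigene, and its spelling missed others. Among those missed, Synaptotagmin-1 had 1 read in pupae and 28 in prepupae, and one named synaptotagmin had 74 in pupae and 11 in prepupae. These were picked with their values known, so the count of lower neuron markers depends on spelling. The other marker lists differed in direction. Cuticle names summed to 9.45 times the prepupal RPM with 12 of 17 unigenes higher, photoreceptor names to 4.29 times with 22 of 50, and muscle names to 2.06 times with 25 of 76. Glial names summed to 1.19 times with 1 of 7 higher. Gut names summed to 1.68 times with 3 higher and 6 lower of 15. Fat body names summed to 0.650 times with 4 higher and 13 lower of 28. Testis and axoneme names summed to 1.14 times with 3 higher and 16 lower of 37. The part of a change in nervous or other tissue in the peptide and receptor values was not tested.

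The enzymes that process precursors showed 8 of 30 unigenes higher and 3 lower. The higher share of 26.7% was near the 23.0% of all filtered unigenes, and the lower share was under the 39.4% of all. With a database match, 14.7% were higher and 41.4% lower. Of 4 neuroendocrine convertase unigenes 3 were higher, among them one of 521 bases with 384 reads in pupae and 108 in prepupae (4.21-fold, 3.40 to 5.27) and another of 164 bases with 102 in pupae and 20 in prepupae (6.05-fold, 3.72 to 10.3). The third, named convertase 2, had 259 reads in pupae and 84 in prepupae and was picked with its value known. The fourth, matched to human convertase 1, had 11 reads in pupae and 26 in prepupae. These proteases cut precursors at paired basic residues. Signal peptidase subunits, which serve all secreted proteins, were the lowest of the list, the 18 kDa subunit with 61 reads in pupae and 327 in prepupae (4.52-fold lower, 3.43 to 6.05). Without signal peptidases and the phosphofurin sorting proteins, which only share a keyword, 6 of 21 were higher and 1 lower. The lower one was matched to silver, the carboxypeptidase D of Drosophila, which trims the cut ends, and had 21 reads in pupae and 57 in prepupae (2.29-fold lower, 1.37 to 3.98). The 5 unigenes named carboxypeptidase D were not called.

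Dense-core vesicle release had 6 of 11 unigenes higher and 2 lower, beside 23.0% higher and 39.4% lower over all filtered unigenes. All 5 unigenes of the calcium-dependent secretion activator, which primes these vesicles for release, were higher, and they summed to 672 reads in pupae and 161 in prepupae (4.95-fold, 4.16 to 5.91). Of these, the 547-base unigene had 222 reads in pupae and 48 in prepupae (5.48-fold, 3.998 to 7.66). The vesicle priming factors unc-13 and Munc13, which also serve ordinary synapses, summed to 128 reads in pupae and 148 in prepupae (1.03-fold, 0.803 to 1.31). Of the lower unigenes, islet cell autoantigen 1 had 15 reads in pupae and 60 in prepupae (3.37-fold lower, 1.89 to 6.40), and the other was an integrin found through the name of its species. Without these 2, set aside as off-target matches, 6 of 9 were higher and none lower. The synaptic vesicle release list had 22 of 43 unigenes higher and 5 lower, so higher values were not limited to the dense-core list. Its name search also caught Rab30, through the term rab3, and syntaxins of several kinds. It is therefore not a clean set of synaptic vesicle proteins. No test sets these lists apart.

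Insect peptides and receptors that the rule did not cover had 5 of 19 filtered unigenes higher and 4 lower. The higher share of 26.3% was near the 23.0% of all filtered unigenes, and the lower share of 21.1% was under the 39.4% of all. With a database match, 14.7% were higher and 41.4% lower. Orcokinin, a neuropeptide of arthropods, had 27 reads in pupae and 5 in prepupae, 6.40-fold higher (2.43 to 21.3). A sex peptide receptor unigene had 18 reads in pupae and 5 in prepupae, 4.27-fold higher (1.53 to 14.7). A somatostatin receptor-named unigene had 14 reads in pupae and 43 in prepupae, 2.59-fold lower (1.39 to 5.13). The 3 unigenes named cardioacceleratory peptide receptor, a name for the receptor of crustacean cardioactive peptide that drives the ecdysis movements, summed to 13 reads in pupae and 2 in prepupae (7.70-fold, 1.74 to 70.3). This sum was picked with its value known, and each of its unigenes had fewer than 10 reads.

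**Figure D4:**
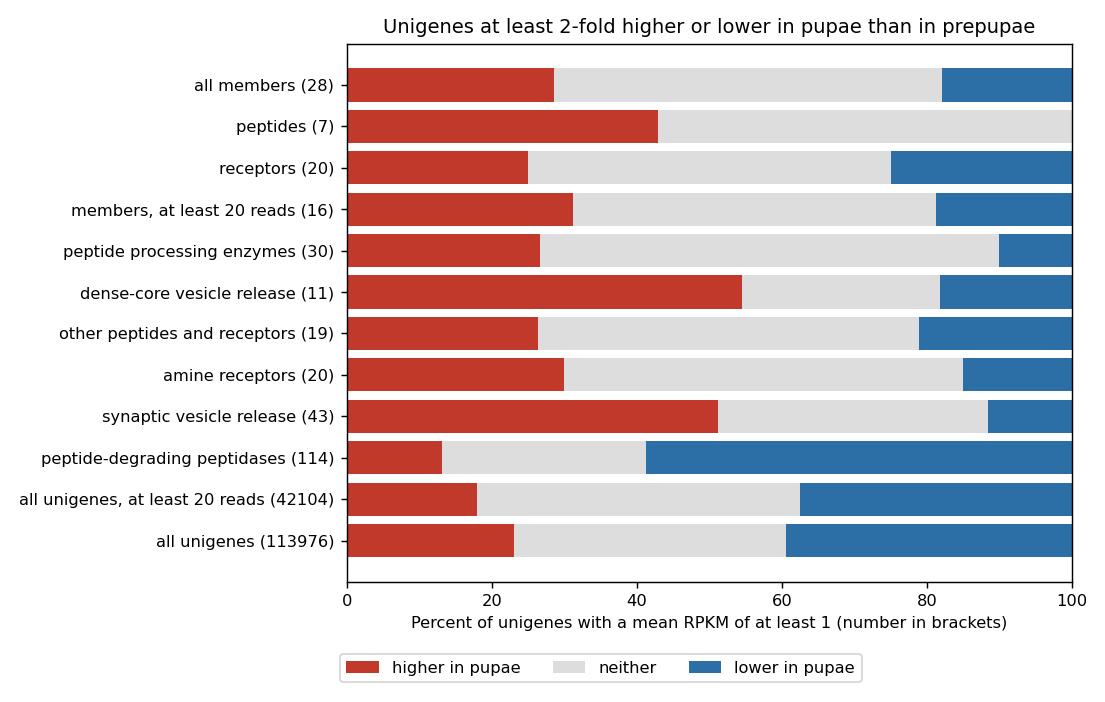
Percent of filtered unigenes called at least 2-fold higher in pupae (red), lower in pupae (blue) or neither (grey) for the members, their roles, the related lists and all unigenes, with the number of unigenes in brackets. Peptides have 3 of 7 unigenes higher and none lower, receptors 5 higher and 5 lower of 20, and all unigenes 23.0% higher and 39.4% lower.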

How the data were processed

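RNA of 1 male pupal and 1 male prepupal library was sequenced on an Illumina instrument, per the labels. Per the file headers, each deposited row holds a unigene with its read count (unique assignments), length in bases, the percent of the length covered by reads, the RPKM, Gene Ontology terms and the best protein match. The deposited counts summed to the header totals, and recomputing the deposited RPKM from count, length and total gave the same value in 100% of rows (tolerance 1e-06). Which assembler and aligner were run is not given in the sources used here. Reads shared between unigenes were not counted, per the file headers, so near-identical copies may have lost reads.

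Both tables were joined by unigene, with 0 reads for an absent unigene (Python 3.11.15, pandas 2.3.3, scipy 1.17.1). TMM factors came from edgeR 4.0.16. The call rule and the interval were tested on simulated data with counting noise alone. Only unigenes with more reads than most members were checked, so the test does not cover the sparse members. Members with at least 10 reads could be named, and from each other list the 2 highest and 2 lowest unigenes with at least 20 reads; members under 10 reads that are named with values were picked after these had been seen. The members and lists were chosen with earlier results of these data known. Alternatives were scaling, pseudocount, filters, length, depth, fold and summing by name. The sums without partner of bursicon or the ETH receptor, and the processing list without signal peptidases and phosphofurin proteins, were added after seeing the data. So was the dense-core list without islet cell autoantigen 1 and the integrin. The sequences of the unigenes were not used here.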

Additional observations from a re-analysis of the deposited data

How the results depend on the processing

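No paired analysis was possible because each stage has 1 library. The 8 higher calls became 5 at a mean of at least 5 RPKM, 3 among the 8 filtered members of at least 500 bases, 5 among those with at least 20 reads, 4 under a 4-fold rule and 5 where the counting interval had to exclude 1. The 5 lower calls became 3 with TMM factors, with centring, with a pseudocount of 5 and among members with at least 20 reads, 1 at 500 bases or more and 2 under the 4-fold rule. Short neuropeptide F and the shortest ETH receptor fragment were called higher, and 2 allatostatin receptor fragments were no longer lower, under both scalings. The ratio of summed reads was 1.46 with TMM factors and 1.56 after division by the overall median ratio. The median log2 ratio of the members was positive under each of the 9 alternatives tried, between 0.09 and 0.65. No named member that was called changed sign under the scalings or pseudocounts tried. Depth is 1 limit, beside the lack of replicates, since 9 of the 29 members had fewer than 10 reads over both libraries.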

Other observations

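Peptidases were listed by the names of families with members that can inactivate secreted peptides. Which of these unigenes act on such peptides, and which have other roles, cannot be told from the names. The list showed mostly lower calls in pupae, with 15 of 114 filtered unigenes higher and 67 lower. Its median log2 ratio was −1.58. Over all filtered unigenes 23.0% were higher and 39.4% lower, with a median of −0.49. With a database match, 14.7% were higher and 41.4% lower. The summed reads of the peptidase list did not follow its calls, with 3737 in pupae and 4342 in prepupae (1.02-fold, 0.976 to 1.07). Aminopeptidase N, which removes single residues from the start of peptides, had 30 of 44 filtered unigenes lower and 5 higher. One membrane alanyl aminopeptidase N unigene had no read in pupae and 297 in prepupae. Another aminopeptidase N unigene had 71 reads in pupae and none in prepupae. All 8 tripeptidyl peptidase unigenes were lower. Angiotensin-converting enzymes cut pairs of residues from the ends of peptides. Of all 22 unigenes with that name, 4 were called higher and 12 lower, with a median log2 ratio of −1.31. Among the higher ones were the 3 named angiotensin-converting enzyme 7. These had 1756 of the list's 3737 reads in pupae and 271 of its 4342 in prepupae, 7.68-fold higher (6.75 to 8.76). They therefore weigh heavily in the sum of the whole list. These family sums were picked with their values known.

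Receptors for amines, the other main class of neuronal G-protein coupled receptors in these lists, had 6 of 20 filtered unigenes higher and 3 lower. Their higher share was near the 23.0% of all filtered unigenes, and their lower share was under the 39.4% of all. With a database match, 14.7% were higher and 41.4% lower. The 20 filtered peptide receptors had 5 higher and 5 lower, and a difference between these receptor classes was not tested. The amine receptors were sparse, and 14 of the 21 had fewer than 10 reads. The deepest, an octopamine receptor of 926 bases, had 16 reads in pupae and 14 in prepupae (1.35-fold, 0.620 to 2.997).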
